A study of Brassica napus with 33 samples.

Results

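The parental lines of an oilseed rape (Brassica napus) hybrid, Express617 and G3D001, were compared in ovules at 30 days after pollination (OS30) by the abundance of small RNA (sRNA) clusters. An sRNA cluster is a stretch of the genome on which aligned sRNA reads pile up. The comparison used 6 of the 33 sRNA libraries of the series, 3 of each parent, and the 91060 entries with a position on the Express617 assembly among 101261 entries counted. Express617 is a winter-type inbred line and the maternal parent, and G3D001 is a semi-winter, semi-synthetic inbred line and the paternal parent. Both grew in the field, were selfed by hand and carried no transgene or treatment, and each replicate pooled 4 ovules that came from 4 plants. The other libraries hold leaves of plants with 6 unfolded leaves, ovules at 15 days after pollination (OS15), and the hybrid. They are used below only where the OS30 comparison needs a reference.

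Plant sRNAs are mostly small interfering RNAs (siRNAs) and microRNAs. siRNAs of the 24-nucleotide class guide DNA methylation to transposons and other repeats, and microRNAs direct the cleavage or translational repression of messenger RNAs. In ovules and seed coats of Brassica rapa, a progenitor of the A subgenome of oilseed rape, a small number of highly expressed siRNA loci is known to give rise to most of the siRNAs. Neither class is marked in the counts, so the values below are for all clusters together. An ovule at this stage holds seed coat, endosperm and embryo, and the clusters cannot be assigned to any of them. Fewer cells of a type and less sRNA per cell cannot be told apart in such bulk samples.

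Reads on clusters numbered 17594609, 17185924 and 17543495 in Express617 replicates 1, 2 and 3 and 24931572, 16398374 and 23450575 in G3D001 replicates 1, 2 and 3. The spread between replicates was above counting error, since chi-squared divided by its degrees of freedom was 3.10 to 7.30 for pairs of Express617 libraries and 12.8 to 30.0 for pairs of G3D001 libraries. G3D001 replicate 2 was the highest in 1 further measure, but not in each version of it. For 41 clusters with at least 50 counts in each Express617 leaf library and 0 in each G3D001 leaf library, the median level relative to the Express617 ovules was 0.94%, 3.41% and 0.10% in G3D001 replicates 1, 2 and 3. As a ratio of sums, the levels were 5.65%, 9.43% and 0.21% in the same order. In the 14 clusters with at least 100 counts in each Express617 leaf library, the medians were 0.71%, 0.20% and 0.22%. In the reverse check, 10 clusters at 0 in the Express617 leaves reached 0.29%, 0.08% and 1.11% of the G3D001 level in the Express617 ovules. Ratios of sums for these clusters were 6.74%, 7.83% and 1.56% in Express617 replicates 1, 2 and 3. At the median, the libraries thus carried the parental differences seen in leaves. By sums, up to 9.43% of the level of the other parent was present, and the source of these reads was not tested. Counts of calls are also given without G3D001 replicate 2.

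The most apparent difference between the parents at OS30 was in how the reads were spread over the clusters. In Express617, 82017, 81488 and 81014 clusters reached at least 1 CPM (counts per 1000000 reads on clusters) in replicates 1, 2 and 3, but only 34304, 32132 and 35052 clusters did so in G3D001. The groups did not overlap (81506 ± 502 against 33829 ± 1517, SD, n = 3, exact permutation test, two-sided, p = 0.1). This is the smallest p-value that 3 against 3 libraries allow, so no exact test of this comparison can pass 0.05. At OS15, the parents had similar numbers of such clusters, with 19132 ± 1753 in Express617 and 19910 ± 1983 in G3D001 (SD, n = 3, exact permutation test, two-sided, p = 0.8).

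As ranked by count, 50% of the reads lay on 392, 458 and 502 clusters in Express617 replicates 1, 2 and 3 and on 154, 140 and 143 clusters in the G3D001 replicates. The reads of G3D001 were thus concentrated on fewer clusters in all 3 libraries. The 1000 clusters with the most reads in a library held 57.2% ± 1.48 of the reads in Express617 and 84.1% ± 0.419 in G3D001 (SD, n = 3, exact permutation test, two-sided, p = 0.1). The 10 largest clusters did not show this, with 12.6% ± 0.398 in Express617 and 10.9% ± 1.86 in G3D001 (SD, n = 3, exact permutation test, two-sided, p = 0.4). The difference therefore lay in the ranks below the 10 largest clusters. The median count per cluster was 48, 50 and 52 in Express617 and 18, 11 and 18 in G3D001.

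**Figure D1:**
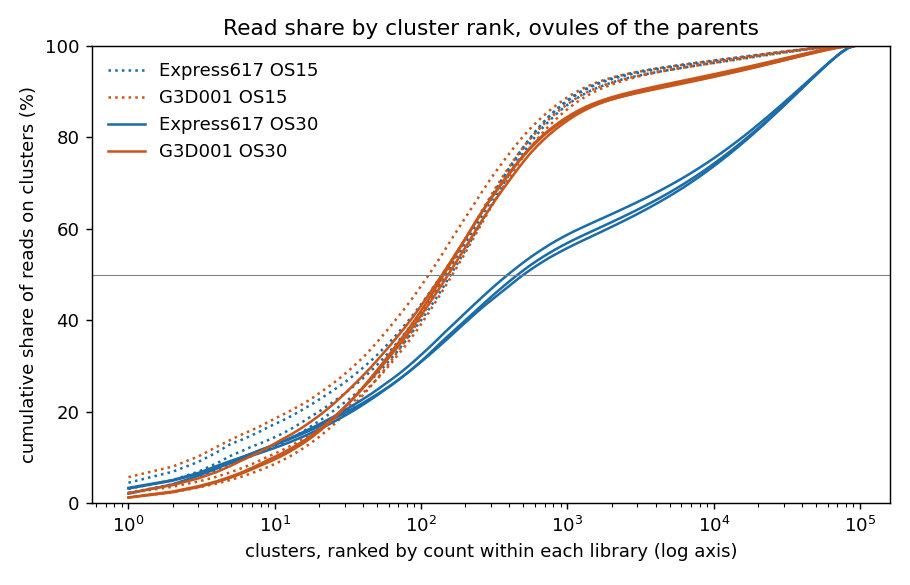
Cumulative share of the reads (%) against the rank of the cluster within each library (log axis), 1 line per library, solid at OS30 and dotted at OS15, with a grey line at 50%. The 3 Express617 lines at OS30 cross 50% at 392 to 502 clusters, and the 3 G3D001 lines at OS30 cross it at 140 to 154 clusters, among the lines of OS15.

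A set of early ovule clusters was followed from OS15 to OS30. It holds the 300 clusters with the highest mean CPM over the 6 OS15 libraries of both parents among those whose mean leaf CPM was under 10% of it, and no OS30 library was used to choose it. The last cluster inside the set had a mean of 655 CPM at OS15, and the first outside had 654 CPM. The set lay on all 19 chromosomes, with 145 clusters on the A subgenome, 141 on the C subgenome and 14 on unplaced scaffolds. The A subgenome thus held 48.3% of the set and 35.2% of all clusters. The clusters were also longer, with a median length of 1239 bp against 689 bp over all clusters.

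At OS30, the early ovule clusters held 26.4%, 26.2% and 25.7% of the reads in Express617 replicates 1, 2 and 3 and 54.7%, 53.9% and 55.4% in G3D001 replicates 1, 2 and 3. The G3D001 libraries all lay far above the Express617 libraries (54.7% ± 0.795 against 26.1% ± 0.351, SD, n = 3, exact permutation test, two-sided, p = 0.1). At OS15, the same clusters held 56.0% ± 0.185 in Express617 and 57.9% ± 2.75 in G3D001 (SD, n = 3, exact permutation test, two-sided, p = 0.4). In the hybrid at OS30 they held 30.0%, 30.2% and 34.8% of the reads of the selfed F1 and 26.2%, 28.7% and 27.5% of the reads of the F0, the cross-pollinated Express617 ovules. Among the genotypes at OS30, G3D001 was thus the one with a share at the level of OS15.

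**Figure D2:**
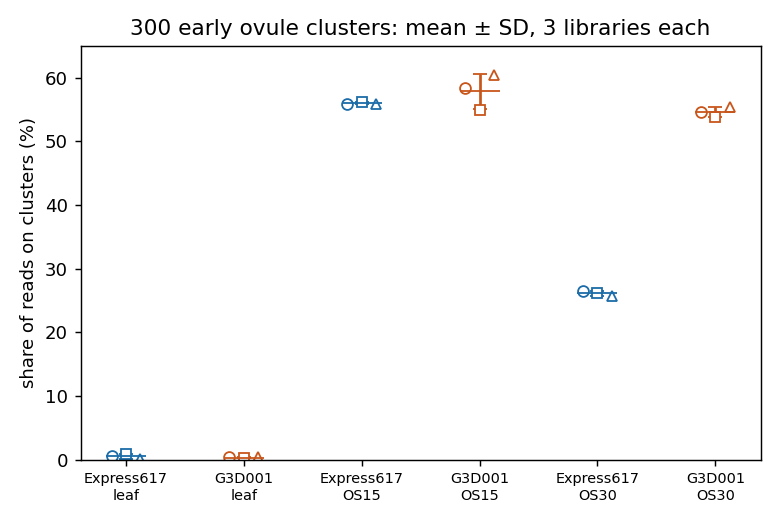
Share of the reads (%) on the 300 early ovule clusters in each library by stage and parent, with open symbols for replicates 1 (circle), 2 (square) and 3 (triangle) and the mean ± SD as a bar. The shares are below 1% in leaves and 55% to 61% at OS15 in both parents, and at OS30 they are 25.7% to 26.4% in Express617 and 53.9% to 55.4% in G3D001.

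Of the 300 early ovule clusters, 268 (89.3%) had a higher mean CPM in G3D001 than in Express617 at OS30, against 10947 (12%) of the 91049 clusters with a count. The CPM of the 3 G3D001 libraries lay above those of the 3 Express617 libraries in 244 clusters (81.3%) and below them in 22 (7.33%), against 5.81% and 78.6% of all clusters. The median CPM over the set was 532 in Express617 and 1277 in G3D001 at OS30, against 1332 and 1386 at OS15. From OS15 to OS30, the mean CPM was lower in 290 of the clusters in Express617 and in 179 of them in G3D001. The median ratio of the OS30 level to the OS15 level was 0.397 in Express617 and 0.921 in G3D001, and this difference was described and not tested.

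The 5 early ovule clusters with the highest level at OS15 fell into 2 kinds by CPM. Cluster_70434 (C07, 37087758 to 37089325) had 5790, 5656 and 4761 CPM in Express617 and 12709, 12389 and 12263 CPM in G3D001 at OS30. Cluster_24672 (A08, 18431332 to 18434316) had 4726, 4657 and 4824 CPM in Express617 and 11685, 13631 and 11784 CPM in G3D001. In both, the G3D001 libraries were over 2-fold higher without overlap, although the levels at OS15 were similar in the parents (8857 to 10482 CPM and 7031 to 8122 CPM). The others, Cluster_77054 (C09, 3185112 to 3185959), Cluster_70555 (C07, 38069987 to 38070436) and Cluster_40653 (C02, 48354026 to 48355418), overlapped between the parents in CPM. This rested on the scaling, which is described below. With TMM they were called higher in G3D001, with log2 ratios of 1.69, 2.01 and 2.02 in this order, and with total counts they were not called. Cluster_70555 had 5558, 4844 and 7100 CPM in Express617 and 6340, 6473 and 5148 CPM in G3D001. Cluster_40653 kept 88.9% to 94.0% of the count of Cluster_70555 in each leaf and ovule library of the parents, so the pair moved as one. Whether both are counted from the same reads was not tested.

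To place the G3D001 libraries along the change from OS15 to OS30, the 42141 clusters were used that differed by at least 2 on the scale of log2(CPM + 0.5) between these stages of Express617. Of these, 41012 were higher at OS30. With the mean of Express617 at OS15 set to 0 and its mean at OS30 set to 1, the median position over the clusters was 0.25, 0.22 and 0.26 in G3D001 replicates 1, 2 and 3 at OS30. The Express617 libraries at OS30, each left out of its own reference, lay at 0.96, 1.00 and 1.04. The G3D001 libraries at OS15 lay at 0.01, 0.00 and 0.00. This scale takes each cluster as a share of the reads of its library. On it, all 3 G3D001 libraries at OS30 were nearer to OS15 than to OS30 of Express617. With a pseudocount of 0.1 the mean of G3D001 was 0.30 in place of 0.24, and along the stages of the F1, an alternative chosen after seeing the data, it was 0.31. Whether G3D001 ovules were at an earlier developmental stage at the same day was not tested.

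Because of this difference in composition, the scaling of the libraries moves the log2 ratio of the clusters, and its sign turned between the scalings used here in 32672 of them (35.9%). TMM scaling assumes that most clusters do not differ and gave factors of 1.90, 1.99 and 2.03 to the Express617 libraries and 0.508, 0.468 and 0.546 to the G3D001 libraries. Total-count scaling takes each cluster as a share of the reads of its library. The median log2 ratio of G3D001 over Express617 over all clusters was -0.08 with TMM and -2.02 with total counts. Its median change from OS15 to OS30 was -0.10 with TMM and -2.04 with total counts. The positions above rest on CPM, and so on total-count scaling, and were not computed with TMM. The sRNA content per ovule was not measured, so neither scaling can be preferred on absolute grounds. All log2 ratios below are G3D001 over Express617.

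**Figure D3:**
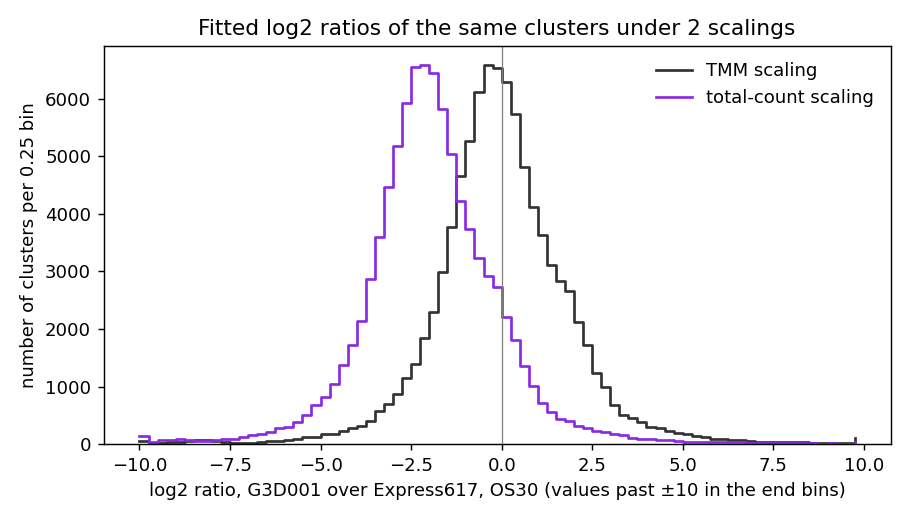
Number of clusters per bin of the fitted log2 ratio of G3D001 over Express617 at OS30 (bins of 0.25, values past 10 in the end bins), with TMM scaling in black and total-count scaling in purple. The 2 curves have the same shape, with medians of -0.08 and -2.02.

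With TMM, 50980 of 91049 clusters tested (56.0%) differed between the parents at an adjusted p-value under 0.05 in the quasi-likelihood test of edgeR. Of these, 25418 (27.9% of the clusters tested) were higher and 25562 (28.1%) were lower in G3D001. With total counts, 5136 clusters (5.64%) were higher and 70836 (77.8%) were lower in G3D001. All 5136 clusters that were higher with total counts were also higher with TMM, and all 25562 that were lower with TMM were also lower with total counts, which gives 5.64% and 28.1% of the clusters called in the same direction with both scalings. This nesting follows from the shift between the scalings and adds no support to the calls. Another 6473 clusters were higher with TMM and lower with total counts. Without G3D001 replicate 2, the numbers with both scalings were 5253 higher and 26301 lower, of which 4764 and 23897 were shared with the calls from all libraries.

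The clusters called with both scalings differed in the weight they had in the libraries. The 5136 clusters higher in G3D001 held 22.6%, 22.7% and 21.8% of the reads in Express617 and 66.5%, 65.8% and 69.2% in G3D001. The 25562 clusters lower in G3D001 held 21.2%, 22.3% and 23.1% of the reads in Express617 and 1.65%, 1.60% and 1.67% in G3D001. These shares describe the calls, since the same libraries chose the clusters. The bar was not the same in the 2 directions, because the scalings differ by a shift of the log2 ratios. All 5136 clusters called higher had a TMM log2 ratio of at least 2 in size, against 36.1% of those called lower. With TMM alone the directions were near equal, at 25418 higher and 25562 lower. That fewer clusters were called higher than lower therefore rests on the scaling.

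Most early ovule clusters were among those called higher. With both scalings, 240 of the 300 (80.0%) were higher and 9 (3%) were lower in G3D001, against 5.64% and 28.1% of all clusters tested. Their median log2 ratio was 3.28 with TMM and 1.3 with total counts.

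Called clusters were also grouped by level, with the tested libraries included in the ranking. Among the 100 clusters with the highest mean CPM over all libraries, 61 were higher and 1 was lower in G3D001 with both scalings. Of the next 900, 450 were higher and 61 were lower. Of the next 9000, 1210 (13.4%) were higher and 2456 (27.3%) were lower. Over all clusters tested, the shares were 5.64% higher and 28.1% lower. Among the 81049 clusters tested below rank 10000, 3415 (4.21%) were higher and 23044 (28.4%) were lower, near the shares of all clusters. These low clusters held 27.6% ± 1.21 of the reads in Express617 and 7.59% ± 0.235 in G3D001 (SD, n = 3, exact permutation test, two-sided, p = 0.1).

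By length, 145 of the 177 early ovule clusters over 1000 and up to 3000 bp long (81.9%) were higher with both scalings. This was close to the 80.0% of the whole early ovule set. These 177 clusters alone held 14.8% ± 0.441 of the reads in Express617 and 34.0% ± 0.564 in G3D001 (SD, n = 3, exact permutation test, two-sided, p = 0.1). Among all clusters, the share higher in G3D001 with both scalings was 11.1% of those up to 100 bp, 5.78% of those up to 500 bp, 5.82% of those up to 1000 bp, 5.30% of those up to 3000 bp and 2.58% of those over 3000 bp, each class starting where the one before ends. The shares lower in G3D001 were 19.7%, 31.0%, 27.4%, 25.7% and 29.9% in the same order. The shortest clusters were thus called higher more often and lower less often than the others, which was not tested as a difference between classes. Clusters up to 100 bp held 1.47% ± 0.137 of the reads in Express617 and 1.43% ± 0.155 in G3D001 (SD, n = 3, exact permutation test, two-sided, p = 0.6).

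The 5 clusters with the smallest p-values among those higher in G3D001 with both scalings and without overlap had at least 607 CPM in each G3D001 library. Cluster_4688 (A02, 12509688 to 12514967) had 6.02, 4.54 and 4.5 CPM in Express617 and 2319, 1763 and 2723 CPM in G3D001, a log2 ratio of 10.76 ± 0.27 (SE, adjusted p = 2.76e-09) with TMM and 8.82 with total counts. It was as different in leaves, where Express617 had 0.873, 0.774 and 0.210 CPM and G3D001 had 2568, 2405 and 2309 CPM. Cluster_84610, on an unplaced scaffold (257904 to 258469), had 1.53, 2.50 and 1.71 CPM in Express617 and 1080, 995 and 1250 CPM in G3D001 at OS30, with a log2 ratio of 11.13 ± 0.29 (SE, adjusted p = 2.76e-09) with TMM and 9.17 with total counts. It was an ovule cluster, with at most 0.210 CPM in a leaf library of either parent. It was already different at OS15, at 0.136, 0.208 and 0 CPM in Express617 and 734, 592 and 544 CPM in G3D001.

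Cluster_49021 (C03, 62230868 to 62232948) belonged to the early ovule set and had 13.3, 15.5 and 13.7 CPM in Express617 and 1094, 981 and 1171 CPM in G3D001 (log2 ratio 8.21 ± 0.21, SE, adjusted p = 2.76e-09 with TMM, and 6.25 with total counts). At OS15 the levels were 148, 127 and 144 CPM in Express617 and 2232, 1941 and 1967 CPM in G3D001, so the cluster fell further in Express617. Cluster_55644 (C05, 4217253 to 4218150), also of the early set, had 30.7, 32.2 and 31.8 CPM in Express617 and 1699, 1451 and 1736 CPM in G3D001, close to its levels at OS15. Cluster_21669 (A07, 18941915 to 18945399) had 8.30, 9.02 and 8.84 CPM in Express617 and 700, 607 and 791 CPM in G3D001. Both were at 0 in the Express617 leaves and had at most 2 counts in a G3D001 leaf library. Their log2 ratios were 7.65 ± 0.19 and 8.28 ± 0.22 with TMM (SE) and 5.69 and 6.33 with total counts.

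The 5 clusters with the smallest p-values in the other direction, chosen in the same way, were close to 0 in G3D001. Cluster_11583 (A04, 4425665 to 4426142) had 1115, 1244 and 1432 CPM in Express617 and 2, 1 and 3 counts in the G3D001 libraries (adjusted p = 2.94e-09 with TMM). Fitted log2 ratios of clusters with so few counts depend on the prior count, so the ratio of the pooled CPM of Express617 over G3D001 is given in their place, with its exact 95% interval for counting error only. It was 13642 (6267 to 37174) for this cluster. It was far lower in Express617 at OS15, at 24.0, 38.2 and 30.4 CPM, and G3D001 had at most 2 counts in any leaf or OS15 library. Cluster_16371 (A06, 1786244 to 1786677) and Cluster_7252 (A02, 30043707 to 30044278) were early ovule clusters that ran against the set. Cluster_16371 had 701, 737 and 844 CPM in Express617 and 3, 1 and 5 counts in G3D001, a ratio of 5475 (2884 to 11975). Cluster_7252 had 565, 548 and 474 CPM in Express617 and 4, 1 and 2 counts in G3D001, a ratio of 4895 (2375 to 12175). At OS15, G3D001 replicate 2 had 57 and 38 counts of these clusters, and the other G3D001 replicates had 4 to 10.

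Cluster_37643 (C02, 12285979 to 12287376) had 233, 225 and 225 CPM in Express617 and 2, 1 and 1 counts in G3D001, a ratio of 3691 (1441 to 13548). Cluster_51887 (C04, 28104650 to 28105532) had 756, 787 and 890 CPM in Express617 and 21, 7 and 14 counts in G3D001, with a log2 ratio of -8.36 ± 0.31 (SE) with TMM and -10.31 with total counts. It was also on in Express617 leaves at 253, 191 and 206 CPM, with at most 1 count in a G3D001 leaf library. The reads of both parents were aligned to the Express617 assembly. Whether G3D001 reads that differ from it in sequence were lost from such clusters was not tested.

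**Figure D4:**
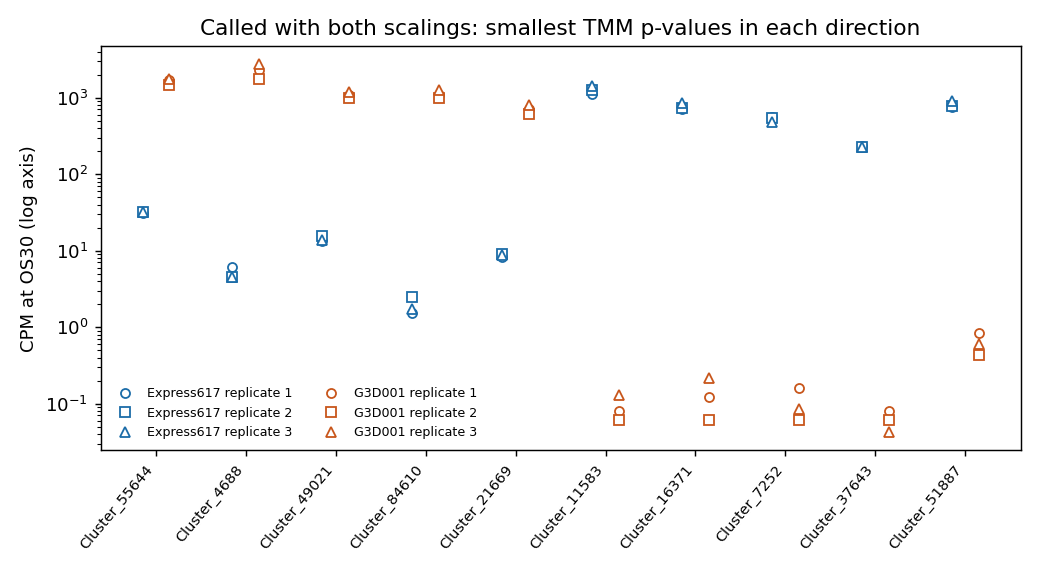
CPM at OS30 (log axis) of the 5 clusters higher and the 5 lower in G3D001 with the smallest TMM p-values among those called in that direction with both scalings and without overlap, with blue symbols for the 3 Express617 libraries and orange symbols for the 3 G3D001 libraries. The first 5 clusters are at 1.53 to 32.2 CPM in Express617 and at 607 to 2723 CPM in G3D001, and the last 5 are at 225 CPM or more in Express617 and under 1 CPM in G3D001.

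Among the 5 clusters with the most reads in Express617 at OS30, the sign of the log2 ratio turned with the scaling. Cluster_55810 (C05, 5570496 to 5571371), the largest in Express617, had 33669, 32269 and 20955 CPM there and 9504, 9052 and 9817 CPM in G3D001. Its log2 ratio was 0.34 ± 0.18 (SE, adjusted p = 0.117) with TMM and -1.61 (adjusted p = 1.6e-06) with total counts. In leaves the same cluster had 304846 to 353934 CPM in both parents. Cluster_21772 (A07, 19839530 to 19840147) had 15705, 17167 and 20244 CPM in Express617 and 10681, 9129 and 10862 CPM in G3D001, with a log2 ratio of 1.17 ± 0.12 (SE, adjusted p = 1.21e-05) with TMM and -0.79 (adjusted p = 9.93e-05) with total counts. Cluster_73572 (C08, 25991328 to 25991914), with 9169 to 15273 CPM in Express617 and 4698 to 4909 CPM in G3D001, and Cluster_45926 (C03, 36292547 to 36294037), with 14103 to 15152 CPM and 8973 to 14576 CPM, turned from higher to lower in the same way. Cluster_77054, which was among the 5 largest clusters of each parent, also turned sign, from 1.69 ± 0.19 (SE, adjusted p = 2.5e-05) to -0.30 (adjusted p = 0.0993).

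Of the 5 clusters largest in G3D001, 3 were called higher there with both scalings without overlap, and these belonged to the early ovule set. Cluster_54821 (C04, 53621774 to 53622935) had 4382, 4191 and 4178 CPM in Express617 and 10310, 13901 and 9511 CPM in G3D001, with a log2 ratio of 3.38 ± 0.19 (SE, adjusted p = 1.19e-07) with TMM and 1.4 (adjusted p = 3.01e-06) with total counts. Cluster_70434 and Cluster_24672, described above, had log2 ratios of 3.17 ± 0.15 and 3.36 ± 0.15 with TMM (SE) and of 1.20 and 1.38 with total counts. Cluster_75069 (C08, 37425541 to 37425736), with 7851, 6096 and 8095 CPM in Express617, had 8916, 22516 and 6966 CPM in G3D001. Its level in G3D001 rested on replicate 2, and its TMM log2 ratio of 2.81 ± 0.40 (SE) was 2.02 without that library.

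Some clusters had reads in 1 parent only at OS30. In 129 clusters each G3D001 library had reads and each Express617 library had 0, and in 485 clusters the reverse held. Clusters at 0 were more numerous in G3D001 as a whole, with 2352 ± 1011 per library against 445 ± 31.1 in Express617 (SD, n = 3, exact permutation test, two-sided, p = 0.1). Of the 485 clusters, 70 (14.4%) lay on C02, which holds 5.52% of all clusters. Of the 129 clusters, 61 were also at 0 in the Express617 libraries of OS15 and leaves, and of the 485 clusters, 271 were at 0 in those of G3D001. Such counts of 0 cover counting error only.

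The largest of the former was Cluster_13067 (A04, 16548347 to 16548798), with 80.3, 70.1 and 141 CPM in G3D001. Against a floor of 3 counts in an Express617 library of mean size, or 0.172 CPM, it was at least 565-fold higher. Its neighbour Cluster_13066 (A04, 16547775 to 16548272) had 74.2, 40.6 and 102 CPM and Cluster_13925 (A05, 5168176 to 5169150) had 59.2, 29.3 and 87.9 CPM. These 3 clusters were at 0 in Express617 leaves and OS15 ovules too. In the other direction, Cluster_70111 (C07, 33790154 to 33791413) had 196, 214 and 236 CPM in Express617 and was at least 1499-fold lower in G3D001, against the floor of 0.144 CPM. It was present in Express617 leaves at 121, 89.3 and 91.8 CPM. Cluster_31960 (A10, 19723665 to 19724740), with 131, 144 and 112 CPM in Express617, was at 0 in the leaves of both parents. Cluster_11139 (A04, 634377 to 634462) was a short cluster with 34.3, 38.4 and 41.4 CPM in Express617 at OS30 and under 2 CPM in its leaves and OS15 ovules.

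Chromosomes were compared by the median log2 ratio of a library to the mean of Express617, less the median over all clusters, for the 73794 clusters that had 20 or more counts on average. C02 was the lowest chromosome in G3D001, with -0.57, -0.34 and -0.86 in replicates 1, 2 and 3 on the scale of log2(CPM + 0.5), and A02 was the highest, with 0.38, 0.25 and 0.49. The Express617 libraries lay between -0.02 and 0.04 on C02 and between 0.00 and 0.01 on A02. The 3 libraries of each parent did not overlap on 13 of the 19 chromosomes (exact permutation test, two-sided, p = 0.1, adjusted p = 0.146 over the 19 chromosomes). The means of the other chromosomes lay between -0.26 and 0.10. The pseudocount of 0.5 CPM equals 8.20 to 12.5 counts in these libraries and so understates differences of low clusters. With a pseudocount of 0.5 counts, tried after the values were seen, the mean was -1.0 ± 0.556 on C02 and 0.54 ± 0.171 on A02 (SD, n = 3), in place of -0.59 ± 0.261 and 0.37 ± 0.117.

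The supplement of the study describes G3D001 as having all of A02 duplicated and all of C02 deleted, while its text names large deletions on C01 alone. Here 4255 of the 5031 clusters on C02 (84.6%) had reads in each G3D001 library at OS30, and 4982 (99%) in each Express617 library. Over the whole genome, 1.47%, 3.69% and 2.58% of the clusters were at 0 in G3D001 replicates 1, 2 and 3, so C02 had fewer clusters with reads than the genome. Whether the reads counted on C02 came from that chromosome was not tested. On C01, the G3D001 libraries lay between -0.05 and -0.01. The part of copy number in the levels of A02 and C02 was not tested.

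A02 and C02 stood out at the other stages too. The mean of G3D001 was -0.62 on C02 and 0.44 on A02 at OS15, and -0.60 and 0.61 in leaves. On C02, 2594 of 5031 clusters tested (51.6%) were lower in G3D001 with both scalings, against 28.1% over all clusters, and on A02 402 of 4013 (10%) were higher, against 5.64%.

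**Figure D5:**
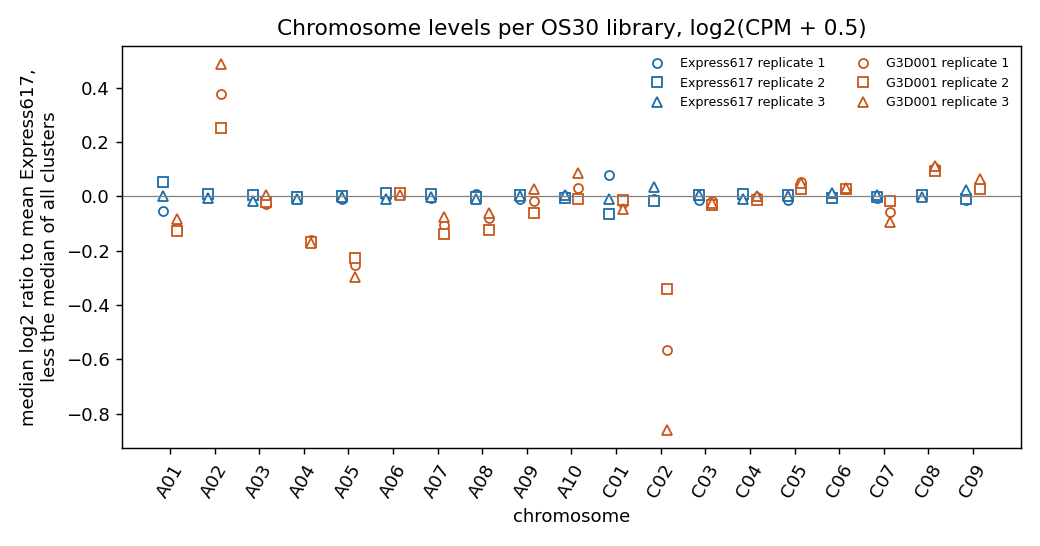
Median log2 ratio of each OS30 library to the mean of Express617 by chromosome, less the median of all clusters, on the scale of log2(CPM + 0.5), with blue symbols for Express617 and orange symbols for G3D001 (replicate 1 circle, 2 square, 3 triangle). G3D001 lies lowest on C02 (-0.86 to -0.34) and highest on A02 (0.25 to 0.49).

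In windows of 1 Mb with at least 20 such clusters, the 3 lowest of 767 windows were adjacent on C02. The window from 10000001 to 11000000 had a mean of -1.02 ± 0.029 in G3D001, that from 11000001 to 12000000 had -0.93 ± 0.106, and that from 12000001 to 13000000 had -0.98 ± 0.053 (SD, n = 3). In the last of these, which holds Cluster_37643, 55 of 74 clusters were lower and 0 were higher in G3D001 with both scalings. On C02 as a whole, 51.6% were lower and 3.62% were higher. The clusters of the window from 12000001 to 13000000 summed to 20234, 19746 and 18886 reads in Express617 and 867, 624 and 735 reads in G3D001. The summed level of the window before it was 4133, 2950 and 2150 CPM in Express617 and 1792, 1696 and 2058 CPM in G3D001, close to equal in replicate 3 of each, and that of the first was 587, 604 and 648 CPM and 81.1, 60.6 and 74 CPM. The highest windows were on C05 from 9000001 to 10000000 (2.13 ± 0.059), on A06 from 7000001 to 8000000 (2.07 ± 0.148) and on A09 from 19000001 to 20000000 (1.56 ± 0.229, SD, n = 3). In the A06 window, 71 of 154 clusters were higher and 19 were lower in G3D001 with both scalings, against 5.64% and 28.1% of all clusters tested. Its summed level was 2673, 2979 and 2679 CPM in Express617 and 19456, 17771 and 20314 CPM in G3D001. These counts describe windows that were chosen on the same libraries. In the A09 window, the summed level was similar, at 306 to 406 CPM in Express617 and 258 to 381 CPM in G3D001, so that it was high only relative to the median of all clusters. The 6 windows were the same with the pseudocount of 0.5 counts, but 28 windows were then at or below -1, 25 of them on C02, in place of 1.

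The parental difference at OS30 was partly present at the other stages, which have libraries of their own. Of the 5136 clusters higher in G3D001 at OS30 with both scalings, 2360 were also higher at OS15, which is 46.0% of these and 33.9% of the 6953 called there (7.66% of the clusters tested). In leaves 954 were higher, which is 18.6% of the 5136 and 18.5% of the 5162 called there (5.78%). Of the 25562 clusters lower at OS30, 4784 were lower at OS15, which is 18.7% of these and 61.9% of the 7727 called there (8.52%). In leaves 4859 were lower, which is 19% of the 25562 and 69.9% of the 6955 called there (7.79%). Most of the clusters lower at OS30 were thus not called at either other stage. Most of the clusters lower at the other stages were lower at OS30 too. The median count per cluster in Express617 was 50 at OS30, but 5.67 at OS15 and 5 in leaves (means of 3 libraries). A lower level is hard to call from so few counts, so a missing call does not show that the parents were alike there.

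The change of the parental difference from OS15 to OS30 was tested as an interaction. With TMM, the difference changed in 18535 of 91057 clusters (20.4%), with 12917 moving towards G3D001 and 5618 towards Express617. With total counts it changed in 48767 clusters (53.6%), of which 2677 moved towards G3D001 and 46090 towards Express617. The balance of the directions therefore also rested on the scaling. Among the named clusters, Cluster_49021, Cluster_70434, Cluster_24672 and Cluster_54821 moved towards G3D001 with both scalings. With total counts alone, Cluster_4688, Cluster_84610, Cluster_11583, Cluster_16371, Cluster_55810 and Cluster_31960 moved towards Express617. Of these, Cluster_4688 and Cluster_84610 were close to 0 in Express617 at OS15. Cluster_21772 moved towards G3D001 with TMM and towards Express617 with total counts.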

How the data were processed

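The authors removed reads under 18 bp with seqtk, used ShortStack to align the remaining reads to the assembly of Express617 and to count them per cluster, and the deposited values are raw counts without normalization. The 10201 entries named by a sequence held 3.90% to 10.1% of the counts at OS30 and entered neither the library sizes nor the tests. Reads of both parents were counted on the Express617 assembly, so sequence differences of G3D001 could lower its counts. Total counts per library are given with the results, and precision comes from the replicates.

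Parents were compared with the quasi-likelihood test of edgeR 4.0.16 in R 4.3.3 (TMM, 6 libraries, clusters with any count, Benjamini-Hochberg adjustment, threshold 0.05) and with total-count scaling. SE is the absolute log2 ratio over the square root of F. The interaction used 12 libraries. Single values were tested with exact permutation tests over 20 groupings. Chromosomes and windows used log2(CPM + 0.5). These had no stated pseudocount in the plan, and a version with 0.5 counts was run after the first values were seen and is given beside them. The test was checked on simulated data in which 200 of 91037 clusters were changed 4-fold. It called 85.5% of these and 24 unchanged clusters. All simulated libraries shared the same mean profile, so the check does not cover the composition difference on which the scalings disagree. Alternatives were RLE and upper-quartile factors, DESeq2 1.42.0, filters, other sets of libraries, a replicate block and leaving out each library.

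Named clusters are, in each direction, the 5 with the smallest TMM p-value among those called with both scalings without overlap of CPM, the 5 with the highest mean CPM in each parent, the 3 highest with 0 counts in the other parent, the 5 highest early ovule clusters, and the 3 highest and 3 lowest windows. The comparison, the early ovule set and these rules were chosen with earlier results of these data known. Figures were drawn with matplotlib 3.10.9.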

Additional observations from a re-analysis of the deposited data

Results flagged for a closer look

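The parental log2 ratio (G3D001 over Express617) differed between OS15 and OS30 in 14 of the named clusters with TMM, by the interaction test of edgeR at an adjusted p-value under 0.05. The change towards G3D001 was 4.32 in Cluster_49021, 3.29 in Cluster_54821, 3.22 in Cluster_24672 and 3.10 in Cluster_70434, and these were 2.38, 1.32, 1.26 and 1.15 with total counts, each with an adjusted p-value under 0.05. It was 2.81 in Cluster_75069, 2.75 in Cluster_51887, 2.43 in Cluster_40653, 2.42 in Cluster_70555, 2.02 in Cluster_73572, 2.01 in Cluster_77054, 1.88 in Cluster_55644, 1.86 in Cluster_21669 and 1.43 in Cluster_45926, none of which passed the threshold with total counts. In Cluster_21772 it was 0.86 with TMM and -1.09 with total counts. With total counts alone, the change was towards Express617 in Cluster_4688 (-2.42, adjusted p = 7.7e-06 in edgeR), Cluster_84610 (-3.24, 6.74e-05) and Cluster_55810 (-1.47, 6.13e-05). It was also towards Express617 in Cluster_11583 (adjusted p = 0.00142), Cluster_16371 (0.00343) and Cluster_31960 (0.0322), which are at or close to 0 in G3D001. Cluster_4688 and Cluster_84610 were close to 0 in Express617 at OS15, with 7, 7 and 6 counts and 2, 3 and 0 counts. Their mean CPM in G3D001 was higher at OS30 too, at 2268 against 1041 and at 1108 against 623 at OS15. In Cluster_77054 and Cluster_73572 the G3D001 libraries at OS15 were far apart, at 5177, 13486 and 57229 CPM and at 1428, 4025 and 15655 CPM.

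The entries named by a sequence, which entered no comparison, held up to 10.1% of the counts of an OS30 library, in Express617 replicate 3, against 4.23% and 3.90% in the other Express617 replicates.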

How the results depend on the processing

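Among the clusters called with TMM, the share higher in Express617 was 50.1%, and it was 93.2% with total-count scaling, 52.6% with upper-quartile factors, 49.3% with DESeq2, 48.3% in the fits of 9 and of 12 libraries, 51.0% with all entries and 49.2% to 50.6% when 1 library was left out. The count of calls was 43305 to 51970 when 1 library was left out. The difference between the parents (G3D001 minus Express617) in the share of the 10 largest clusters was -1.63 percentage points, but 10.6 and 27.0 points for the 100 and 1000 largest. Leaving out 1 library gave -2.70 (without G3D001 replicate 2) to -0.96 points (without G3D001 replicate 3). The position of G3D001 at OS30 moved from 0.24 to 0.30 with a pseudocount of 0.1 and to 0.31 along the stages of the F1. This position was not computed with TMM. The level of the clusters at 0 in G3D001 leaves was 1.49% as a median of ratios and 5.10% as a ratio of sums. Windows at or below -1 made up 0.130%, with 0.403% in windows of 0.5 Mb, 1.52% at a mean of 50 counts and 3.65% with a pseudocount of 0.5 counts. That pseudocount, chosen after seeing the data, also moved the difference between the parents from 0.37 to 0.54 on A02 and from -0.59 to -1.01 on C02. The changed differences between OS15 and OS30 numbered 18535, 48767 with total counts and 15286 to 19984 when 1 library was left out. With total counts the log2 ratios of Cluster_55810 (-1.61), Cluster_21772 (-0.79), Cluster_77054 (-0.30), Cluster_45926 (-0.40) and Cluster_73572 (-1.30) turned sign, and Cluster_70555 and Cluster_40653 were no longer called. The causes were not tested, apart from the shift that the scaling makes.

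Replicate numbers were not taken to pair the samples in the main fit. The correlations of the deviations of same-numbered libraries were 0.15, -0.02 and 0.03. Those of libraries with different numbers were -0.09 to 0.06. With 3 libraries of each parent, these values cannot exclude a pairing. With a replicate block, 46465 clusters were called, 27933 with both scalings, and 18407 changed between the stages.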
